A study of Mus musculus with 59 samples.

Results

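The non-Hox homeobox developmental genes were examined in RNA-seq libraries of 6 conditional mouse embryonic stem cell (ESC) lines. Members were taken by name, as every symbol in the deposited tables of the numbered *Nkx*, *Pax*, *Lhx*, *Irx*, *Dlx*, *Pitx*, *Gsx*, *Msx*, *Barx*, *Meis*, *Emx*, *En*, *Gbx*, *Alx*, *Vax*, *Hmx*, *Prrx* and *Evx* families and of the sine oculis homologues, which gave 80 of 24391 genes. No measured value entered that choice. By class of homeodomain, 34 members belong to the NKL class, 17 to the PRD class, 9 to TALE, 8 to LIM, 6 to SINE and 6 to HOXL. The name holds for their families, although *Pax1* and *Pax9* have a paired domain and no homeodomain.

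The study compared ESCs with embryoid bodies (EBs), and cells with and without a subunit of Polycomb repressive complex 1 (PRC1). Each line carries ERT2-Cre, a recombinase that 4-hydroxytamoxifen (4-OHT) activates. Controls were the same cells without 4-OHT, so that an effect of the drug itself and an effect of the lost gene cannot be told apart, and each genotype stands on 1 line. The *Pcgf1* line (*Pcgf1* fl/fl) has 4 control ESC libraries and 5 libraries in each of the groups *Pcgf1*-KO ESC, control EB and *Pcgf1*-KO EB. Every other line has 2 libraries in each of these 4 groups. In the *Ring1A*-pm;*Ring1B*-cpm line, *Ring1A* is a point mutant in controls too and 4-OHT converts *Ring1B* to its point mutant form, which leaves a complex without its ubiquitin ligase activity. In the *Ring1A/B* line, *Ring1A* is deleted in controls too (Ring1a-/-) and 4-OHT deletes *Ring1B*. The *Pcgf2/4*, *Pcgf3/5* and *Pcgf6* lines carry floxed alleles of the genes of those names, with *Bmi1* as *Pcgf4*. ESCs were kept with LIF and the inhibitors SU5402, PD184352 and CHIR99021 on mouse embryonic fibroblasts (MEFs), and EBs were formed without them for 2 days in low attachment dishes. Nothing in the labels ties replicates to separate cultures, so that *p*-values measure only the spread between these libraries, which may be technical.

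Homeobox genes encode transcription factors that bind DNA through a homeodomain and set regional and cell identity in the embryo. The NK, Pax, Lim, Iroquois, sine oculis and Distal-less families act in the neural plate, the placodes, the limb, the gut and the heart, and most of their genes are silent in ESCs. PRC1 with its E3 ligase subunits RING1A or RING1B places a ubiquitin on histone H2A, and one of 6 PCGF proteins defines each form of the complex. The form that holds PCGF1 contains KDM2B, a protein that binds unmethylated CpG-rich DNA, and homeobox loci with dense CpG at their starts are textbook targets of Polycomb repression.

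In 2 lines (*Pcgf1* and *Ring1A*-pm;*Ring1B*-cpm) the condition in the name of each deposited file and the sample label are the same. In 21 of 32 libraries of the other 4 lines they differ. Libraries were grouped by label and no comparison was set up by file name. In the *Ring1A/B* line the 2 libraries labelled mutant ESC carry the name of control EBs, and the 2 labelled control EB carry the name of mutant ESCs. In the *Pcgf2/4*, *Pcgf3/5* and *Pcgf6* lines libraries of 1 labelled group carry different names, and values of these lines are given below with both. The markers of the stage bear on this directly. In the *Pcgf1* line, 11 genes of naive ESCs summed to between 2585 and 6238 TPM in ESC libraries and to between 271 and 1174 TPM in EB libraries. In the *Ring1A/B* line, they summed to 410 and 422 TPM in libraries labelled mutant ESC and to 2862 and 2997 TPM in libraries labelled control EB. These sums go with the stage in the file names of these libraries and against the stage in their labels. Values for these 4 lines are therefore those of libraries labelled as stated.

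Values are TPM (a level per gene scaled for transcript length and for the library's total), and log2 fold changes are on the scale of log2(TPM + 0.1) with the standard error (SE) of a limma fit over the 4 groups of a line. A member was called when its *p*, adjusted over all genes tested, was under 0.05. TPM keeps no depth, and read numbers could not be given for any value. Between 6039 and 9139 genes were listed at 0 per library. The targeted *Pcgf1* was between 10.7 and 13.6 TPM in control ESCs, between 0.627 and 2.77 TPM in *Pcgf1*-KO ESCs, between 7.3 and 16.6 TPM in control EBs and between 0.978 and 2.47 TPM in *Pcgf1*-KO EBs, with no overlap between control and KO. *Ring1*, which encodes RING1A, lay between 0.973 and 3.41 TPM in all 8 libraries of the *Ring1A/B* line and between 9.11 and 15.6 TPM in those of the *Ring1A*-pm;*Ring1B*-cpm line. *Rnf2*, which encodes RING1B, was between 62.9 and 95.1 TPM in every library of the *Ring1A/B* line, so that its level did not mark the mutant libraries under either naming. A point mutant transcript is not told apart by its level. *Pcgf6* in the *Pcgf6* line went against the labels. It was 91.5 and 67.1 TPM in libraries labelled control ESC, 104.6 and 78.8 TPM in mutant ESC, 34.7 and 35.7 TPM in control EB and 36.9 and 46.3 TPM in mutant EB, and the 4 libraries between 34.7 and 46.3 TPM are those whose file names give the mutant. In the *Pcgf2/4* line *Pcgf2* (between 39.6 and 55 TPM) and *Bmi1* (between 4.12 and 10.03 TPM), and in the *Pcgf3/5* line *Pcgf3* (between 27.6 and 35.6 TPM) and *Pcgf5* (between 15.6 and 24.7 TPM), did not mark the mutant libraries by label. In these bulk samples, fewer cells that express a gene and less RNA per cell cannot be told apart.

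Most members were near silent in controls. In the *Pcgf1* line, 51 of 80 members stayed under 1 TPM in every control ESC library and 9 were listed at 0 in all 4, and 48 stayed under 1 TPM in all 5 control EB libraries. The number of members at or above 1 TPM was between 16 and 22 in control ESCs, between 21 and 27 in *Pcgf1*-KO ESCs, between 20 and 29 in control EBs and between 24 and 29 in *Pcgf1*-KO EBs. In the *Ring1A*-pm;*Ring1B*-cpm line this number was 19 and 20 in control ESCs and 19 and 25 in control EBs, against 48 and 53 in mutant ESCs and 52 and 59 in mutant EBs. The number in the *Ring1A/B* line was 20 and 24 in libraries labelled control ESC, 27 and 29 in those labelled mutant ESC, 56 and 56 in those labelled control EB and 62 and 64 in those labelled mutant EB. No library of the *Pcgf1*, *Pcgf2/4*, *Pcgf3/5* and *Pcgf6* lines had more than 29 members at this level. The number of all genes at or above 1 TPM moved the same way in the *Ring1A*-pm;*Ring1B*-cpm line, from between 12724 and 13243 in controls to between 13752 and 14149 in mutants, and its part in the members' counts was not tested.

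**Figure D1:**
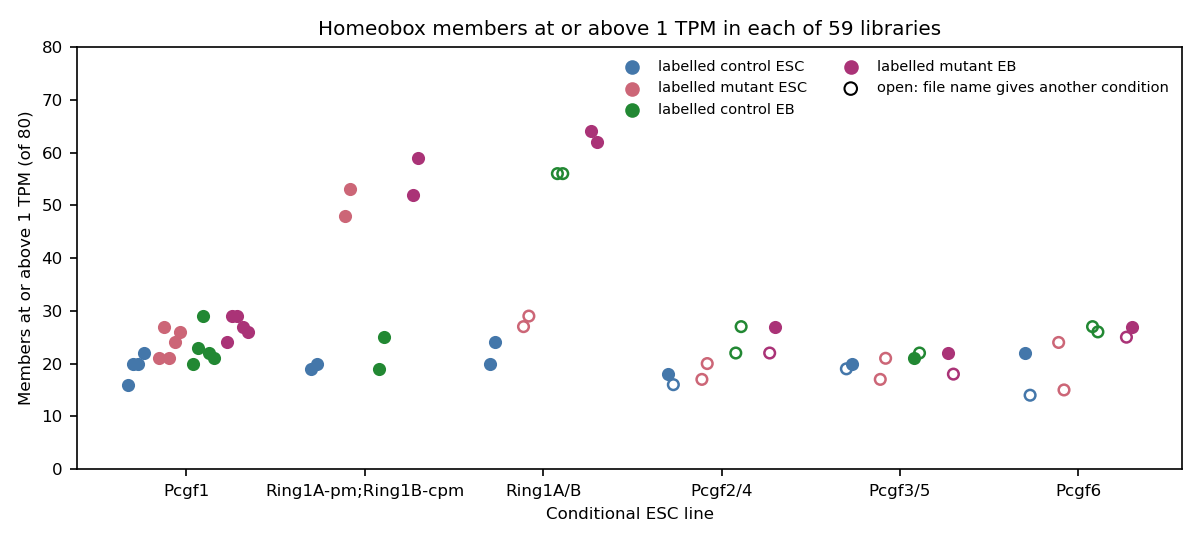
Number of the 80 members at or above 1 TPM (vertical axis) in each of the 59 libraries, 1 point per library, by conditional line (horizontal axis) and labelled group (colour). Open points are libraries whose file name gives another condition than the label. The mutant libraries of the *Ring1A*-pm;*Ring1B*-cpm line (48 to 59 members) and the libraries labelled control EB and mutant EB of the *Ring1A/B* line (56 to 64) stand above all others (14 to 29).

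The 5 members with the highest mean level in control ESCs of the *Pcgf1* line included *Six4*, *Nkx6-2*, *Gbx2* and *Irx2*, and in control EBs *Six4*, *Gbx2* and *Irx3*. *Six4* led in both stages at 25.6 ± 12.2 TPM (SD, n = 4) and 64.8 ± 20.9 TPM (n = 5). In control ESCs *Nkx6-2* and *Gbx2* had means of 7.9 and 6.81 TPM, which differ by less than the spread of *Gbx2* between libraries. The study also sorted RING1B target genes by whether binding rose (Group 1), stayed level (Group 2) or fell (Group 3) from ESCs to EBs. Of 80 members, 73 (91.2%) are on the Group 2 list, against 6.15% of all genes in the tables. *Nkx1-2* is the 1 member on the Group 1 list, and 0 are on the Group 3 list. The members on none of the lists include *Six4*, *Six5*, *Meis3*, *Prrx2* and *Pax4*. Of these, *Six4* was the highest member of all in control cells, *Six5* lay between 1.72 and 6.51 TPM and *Prrx2* between 1.01 and 8.64 TPM in every library of the *Pcgf1* line.

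**Figure D2:**
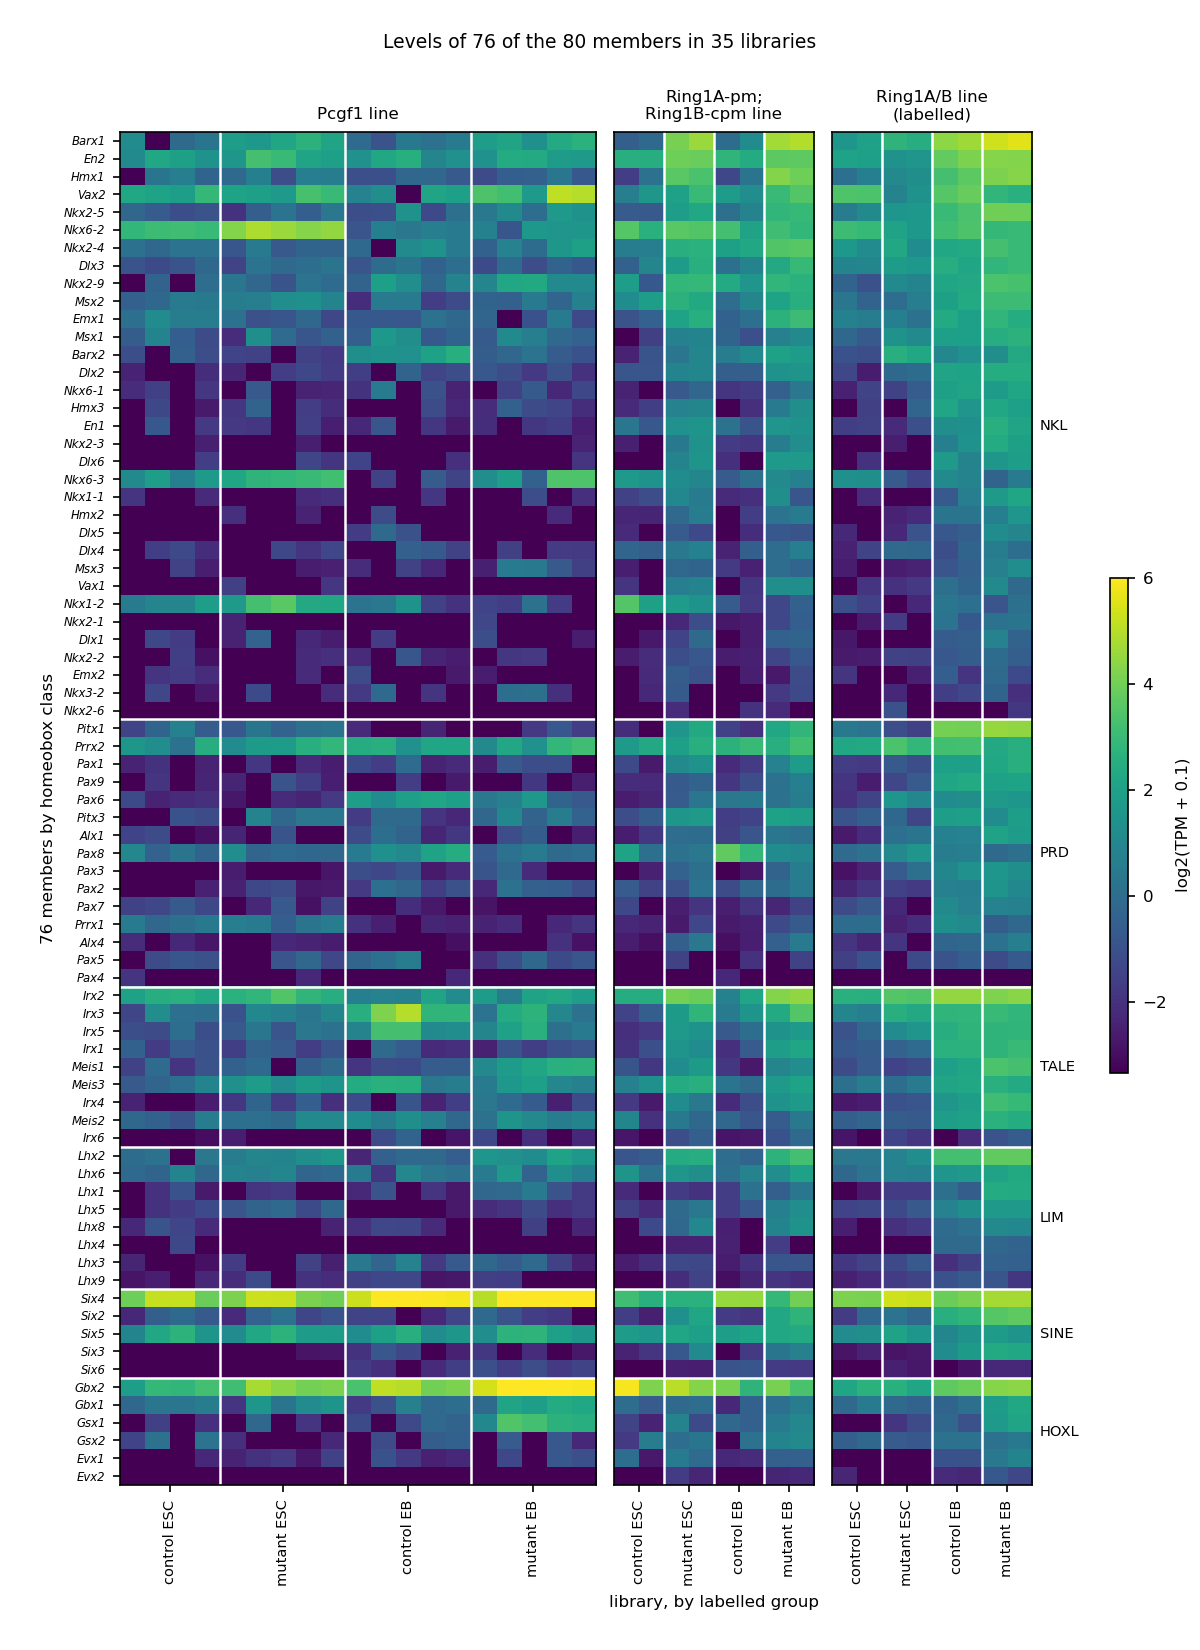
Level of 76 of the 80 members (rows, by homeobox class and, within a class, by mean level in the *Ring1A/B* line) in the 35 libraries of 3 lines (columns, by labelled group), as log2(TPM + 0.1), where the darkest colour is 0 TPM. Most rows are dark in controls and in all groups of the *Pcgf1* line, and light in mutants of the *Ring1A*-pm;*Ring1B*-cpm line and in libraries labelled control EB and mutant EB of the *Ring1A/B* line.

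The promoters of 3 members are shown because these genes carry the changes described below. *Irx3* was higher in control EBs than ESCs, *Gsx1* was higher in *Pcgf1*-KO EBs, and *Barx1* was higher in the point mutants at both stages. Each sequence is from RefSeq on GRCm38.p6, read 5′ to 3′ on the strand of the gene, from 250 bases before to 50 bases from the start on (300 bases), and every CpG dinucleotide (the motif CG, the same on both strands) is in capitals. The windows are chr8:91801605-91801904 (minus strand) for *Irx3*, chr5:147188446-147188745 (plus) for *Gsx1* and chr13:48662786-48663085 (plus) for *Barx1*.
Irx3: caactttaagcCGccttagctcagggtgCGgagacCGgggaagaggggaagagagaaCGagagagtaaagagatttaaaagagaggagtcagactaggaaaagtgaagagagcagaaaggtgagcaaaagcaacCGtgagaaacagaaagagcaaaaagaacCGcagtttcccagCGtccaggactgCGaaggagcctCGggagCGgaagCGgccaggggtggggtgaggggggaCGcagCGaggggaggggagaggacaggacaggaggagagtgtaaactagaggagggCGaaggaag
Gsx1: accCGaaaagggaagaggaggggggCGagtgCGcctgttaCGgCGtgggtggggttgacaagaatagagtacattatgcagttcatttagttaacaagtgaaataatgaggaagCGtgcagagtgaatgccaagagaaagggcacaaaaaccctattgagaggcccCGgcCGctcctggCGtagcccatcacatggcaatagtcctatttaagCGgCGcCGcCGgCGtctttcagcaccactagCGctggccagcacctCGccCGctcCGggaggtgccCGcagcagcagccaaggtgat
Barx1: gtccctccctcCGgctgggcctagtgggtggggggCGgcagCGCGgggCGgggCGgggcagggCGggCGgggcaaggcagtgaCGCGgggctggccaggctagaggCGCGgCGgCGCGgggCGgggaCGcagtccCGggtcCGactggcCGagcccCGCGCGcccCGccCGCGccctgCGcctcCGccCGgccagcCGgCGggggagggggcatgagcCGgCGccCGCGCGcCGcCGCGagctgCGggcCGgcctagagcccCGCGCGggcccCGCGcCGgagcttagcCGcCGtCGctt
The 3 windows hold 14 (*Irx3*), 19 (*Gsx1*) and 50 (*Barx1*) CpGs. Over the promoters of 27025 genes of the same length the median is 7, the quartiles are 3 and 21, and 94.2% hold at least 1. The number for *Barx1* is above that of 99.1% of all promoters, for *Gsx1* 71.6% and for *Irx3* 63.1%. The promoter table matched 57 of 80 members (71.2%), which is too few for a comparison of the members with all genes.

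In control cells of the *Pcgf1* line, *Pax6*, *Irx3*, *Irx5*, *Barx2*, *Gbx2* and *Six4* were among the members higher in EBs than in ESCs, and *Nkx6-2*, *Nkx6-3*, *Prrx1* and *Irx2* among those lower. Of 78 members tested (*Evx2* and *Nkx2-6* were listed at 0 throughout), 18 were higher and 7 lower in control EBs than in control ESCs, where 11.5% and 13.4% of all genes tested were called. The median log2 fold change was 0.21 over the members and -0.01 over all genes. By class, 4 of 6 SINE members, 5 of 17 PRD members, 4 of 33 NKL members, 3 of 9 TALE members, 1 of 8 LIM members and 1 of 5 HOXL members were higher.

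*Six4*, a gene of the SINE class (chr12:74201246-74214401, mm9, minus strand), encodes a factor of sensory placodes and muscle precursors. It was 15.4, 35.9, 36.4 and 14.6 TPM in control ESCs and 38.1, 95.3, 71.8, 61.1 and 57.9 TPM in control EBs, and rose by a log2 of 1.41 (SE 0.4, adjusted *p* = 0.0141). The groups did not overlap. *Six6*, a gene of the eye field, was called higher at a low level, listed at 0 in all ESC libraries of the line and between 0 and 0.231 TPM in control EBs.

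The Iroquois genes *Irx3* and *Irx5* (chr8:94322428-94325553 and chr8:94881695-94885351, mm9), which pattern the neural tube and heart, rose together. *Irx3* was 0.284, 2.33, 0.961 and 0.927 TPM in control ESCs and 5.85, 18.1, 31.2, 6.75 and 6.7 TPM in control EBs (log2 3.45, SE 0.67, adjusted *p* = 8.7e-04). *Irx5* was 0.372, 0.353, 0.945 and 0.371 TPM in control ESCs and 1.68, 9.41, 9.2, 2.08 and 2.28 TPM in control EBs (log2 2.75, SE 0.6, adjusted *p* = 0.00222). Replicates 2 and 3 of the EBs, which share a library series, were the highest for both genes, and the groups still did not overlap. *Irx6*, the third gene of this cluster, had values between 0 and 0.673 TPM and was not called. *Irx2* of the other Iroquois cluster fell, from between 3.9 and 5.99 TPM to between 1.52 and 4.25 TPM (log2 -1.23, SE 0.34, adjusted *p* = 0.0131), with an overlap in control EB replicate 4.

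*Pax6*, a gene of the anterior neural plate and eye (chr2:105509053-105543317, mm9), had the largest log2 fold change among the members. It was 0.329, 0.0892, 0.119 and 0.136 TPM in control ESCs and 3.63, 2.19, 3.69, 4.4 and 3.74 TPM in control EBs (log2 3.8, SE 0.45, adjusted *p* = 7.4e-06). *Barx2*, which acts in craniofacial and muscle tissue, was 0.374, 0, 0.634 and 0.362 TPM in control ESCs and 2.41, 2.59, 2.53, 3.99 and 5.61 TPM in control EBs (log2 3.23, SE 0.53, adjusted *p* = 1.92e-04). Neither gene's groups overlapped. *Gbx2*, a gene of the hindbrain border that ESCs also express, went from 3.68, 7.39, 6.94 and 9.23 TPM to 9.9, 34.6, 31.7, 16 and 17.7 TPM (log2 1.6, SE 0.37, adjusted *p* = 0.0033). *Pax8* (log2 1.35, SE 0.44, adjusted *p* = 0.0316), a thyroid and kidney gene, and *Nkx2-9* (log2 2.44, SE 0.68, adjusted *p* = 0.0126), a floor plate gene, were called with overlapping groups. *Nkx2-1*, a neighbour of *Nkx2-9* on chromosome 12, was listed at 0 in all 9 control libraries.

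Both *Nkx6-2* and *Nkx6-3*, relatives that act in the spinal cord and in the gut, fell. *Nkx6-2* was 7.03, 8.24, 8.63 and 7.7 TPM in control ESCs and 0.453, 1.52, 1.19, 1.5 and 1.36 TPM in control EBs (log2 -2.71, SE 0.43, adjusted *p* = 1.27e-04). *Nkx6-3* was 2.1, 3.61, 1.52 and 3.08 TPM in control ESCs and 0, 0.259, 0, 0.532 and 0.272 TPM in control EBs (log2 -3.39, SE 0.7, adjusted *p* = 0.00139). The libraries of both stages stood apart for each of them. *Prrx1*, a gene of mesenchyme that fibroblasts express, fell from between 0.741 and 1.35 TPM to between 0 and 0.155 TPM (log2 -2.74, SE 0.36, adjusted *p* = 2.42e-05). A list of 24 fibroblast genes, such as those of collagens, *Fn1*, *Sparc* and *Vim*, moved with it. The list summed to between 2033 and 4757 TPM in control ESCs, which grow on MEFs, and to between 365 and 692 TPM in control EBs. No gene of the list was at 0 throughout either group. The part of the MEFs in the level of *Prrx1* or of other members was not tested. Without replicates 2 and 3, 13 members were called (9 higher, 4 lower), and the calls of *Irx2*, *Nkx2-9* and *Pax8* were lost.

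**Figure D3:**
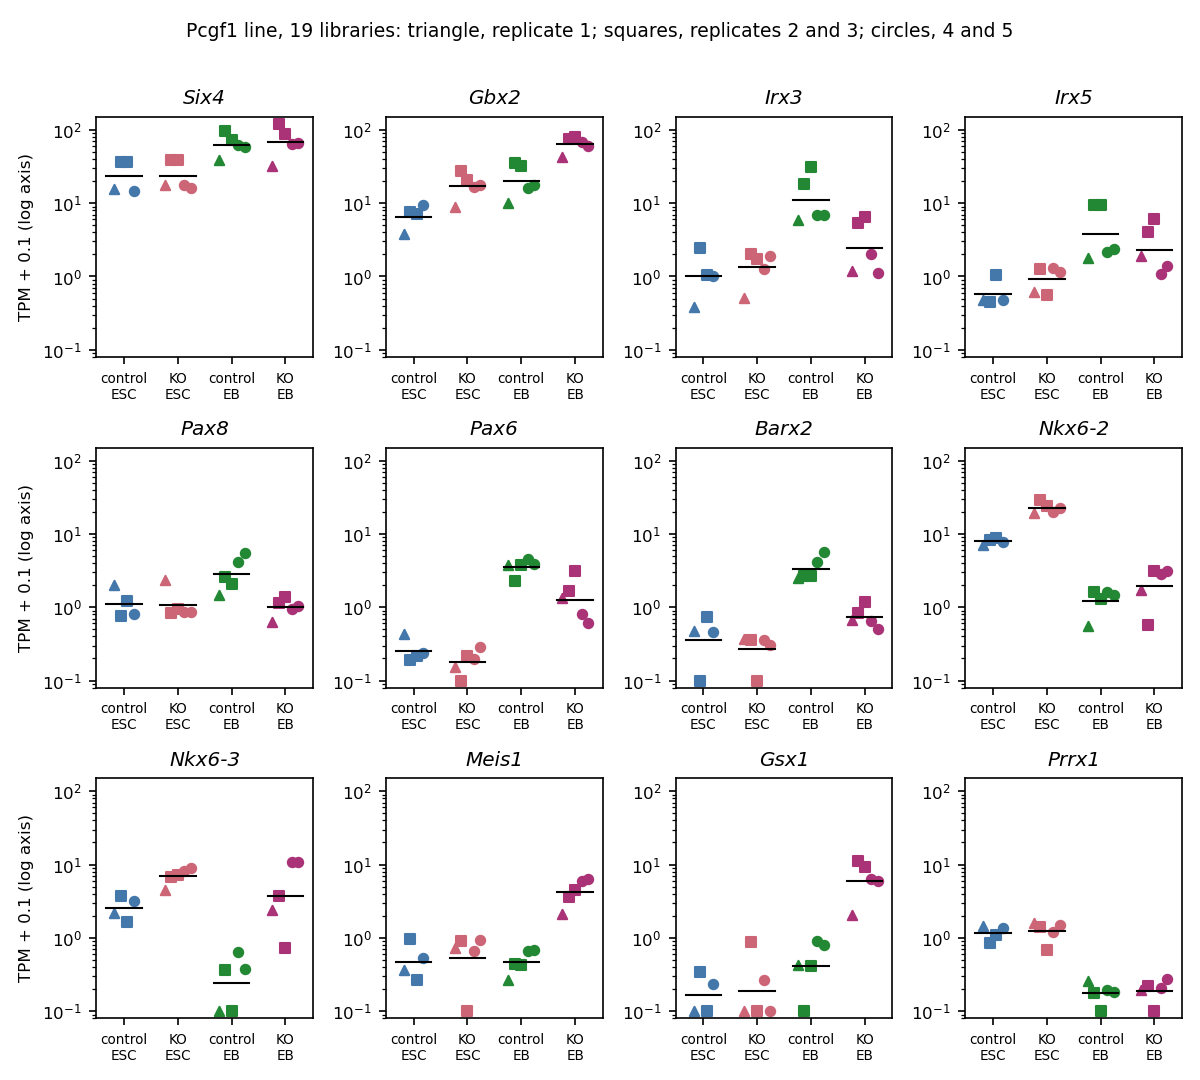
TPM + 0.1 on a log axis for 12 members in the 19 libraries of the *Pcgf1* line, 1 point per library and a bar at the mean of the log values, in control and *Pcgf1*-KO (KO) ESCs and EBs. Marks give the library series, with triangles for replicate 1, squares for replicates 2 and 3 and circles for replicates 4 and 5. *Six4*, *Irx3*, *Irx5*, *Pax6* and *Barx2* are higher in control EBs than control ESCs, and *Gsx1*, *Meis1*, *Nkx6-3* and *Gbx2* are higher in KO than control EBs.

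Few members were called for the loss of *Pcgf1* in ESCs when replicate numbers were left out of the fit. Of 78 members, 1 was called higher and 0 lower, where 0.32% of all genes were called in each direction. At an unadjusted *p* under 0.05, limma gave 12 members higher and 5 lower. Of all 20594 genes tested, 1777 passed at that threshold in either direction. The median log2 fold change was 0.2 over the members and -0.02 over all genes. No member was called without replicates 2 and 3 or without replicates 4 and 5, and leaving out single ESC libraries left 0 to 2 called.

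Same-numbered libraries of the *Pcgf1* line deviated together, and the fit with the replicate number as a block called 7 members in ESCs, 6 higher and 1 lower, where 2.53% and 2.78% of all genes were called. In this blocked fit the higher members included *Gbx2* (log2 1.4), *Barx1* (2.5), *Lhx5* (1.42), *Nkx1-2* (1.9) and *En2* (0.79). *Gbx2* was 8.81, 27.4, 20.6, 16.5 and 17.7 TPM in *Pcgf1*-KO ESCs, above control in each of 4 pairs. *Barx1*, a gene of the stomach and branchial arches (chr13:48758367-48761876, mm9), was 2.14, 0, 0.834 and 1.13 TPM in control and 3.57, 3.06, 4.43, 6.33 and 4.23 TPM in *Pcgf1*-KO ESCs. Its groups did not overlap, although the adjusted *p* without the block was 0.0736.

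*Nkx1-2*, the member on the Group 1 list and a marker of caudal neural progenitors, was 1.29, 1.78, 1.79 and 3.58 TPM in control ESCs and 3.19, 9.48, 12.1, 4.85 and 4.73 TPM in *Pcgf1*-KO ESCs. In EBs it was 1.06, 1.22, 2.68, 0.25 and 0.16 TPM in control and 0.27, 0.234, 1, 0.206 and 0 TPM in KO. Its libraries overlapped at both stages. *Nkx6-2* was 19.2, 28.9, 24.1, 19.7 and 22.6 TPM in *Pcgf1*-KO ESCs, above every control ESC library, with an adjusted *p* of 0.141 for a log2 of 1.51 (SE 0.43) that the block did not bring under the threshold. Summed fibroblast genes were between 1686 and 3404 TPM in *Pcgf1*-KO ESCs, below the highest controls, and their part in these values was not tested.

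In *Pcgf1*-KO EBs, *Gsx1*, *Meis1*, *Nkx6-3*, *Gbx2* and *Lhx5* were among the members called higher, and *Barx2* was lower. Of 78 members, 6 were higher and 1 lower in *Pcgf1*-KO than in control EBs, where 1.08% and 0.874% of all genes were called. The median log2 fold change was 0.12 over the members and -0.03 over all genes. *Gsx1*, a gene of ventral forebrain progenitors (chr5:148000272-148002523, mm9), was 0.325, 0, 0.32, 0.806 and 0.687 TPM in control and 1.93, 11, 9.14, 6.31 and 5.82 TPM in *Pcgf1*-KO EBs (log2 3.85, SE 0.7, adjusted *p* = 0.00668). In ESCs of either genotype it was never above 0.783 TPM. *Meis1*, a cofactor of Hox proteins (chr11:18780433-18918961, mm9), was 0.168, 0.337, 0.33, 0.553 and 0.575 TPM in control and 1.99, 3.49, 4.43, 5.93 and 6.21 TPM in KO EBs (log2 3.17, SE 0.56, adjusted *p* = 0.00586). Both genes were higher in KO in each of 5 pairs and their groups did not overlap.

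*Nkx6-3* (chr8:24263743-24269420, mm9), which fell in control EBs, was 2.29, 3.58, 0.639, 10.7 and 10.7 TPM in *Pcgf1*-KO EBs, all above control EBs (log2 3.96, SE 0.66, adjusted *p* = 0.0038). *Gbx2* was 42.4, 73.8, 80.2, 67.7 and 60 TPM in KO EBs (log2 1.67, SE 0.35, adjusted *p* = 0.0154). It thus lay above control EBs in every library, after a rise from ESCs to EBs in controls. *Six4* was 31.6, 119, 86.2, 64.2 and 66.6 TPM in KO EBs, which overlaps control EBs, and was not called. *Lhx5* of the diencephalon was higher at a low level, from at most 0.0556 TPM in control to between 0.125 and 0.348 TPM in KO EBs (log2 1.39, adjusted *p* = 0.048).

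*Barx2* was lower, at 0.573, 0.745, 1.06, 0.548 and 0.411 TPM in *Pcgf1*-KO EBs against 2.41 to 5.61 TPM in control EBs (log2 -2.18, SE 0.5, adjusted *p* = 0.0296). With the replicate number as a block, 17 members were called in EBs, 12 higher and 5 lower, where 4.83% and 5.58% of all genes were called. The blocked fit added *Vax2* (log2 3.1), *Lhx2* (2.29), *Gbx1* (2.13), *Barx1* (2.04), *Msx3* (1.76) and *Lhx1* (1.73) among the higher members and *Irx3* (-2.15), *Pax8* (-1.5), *Pax6* (-1.48) and *Dlx5* (-1.43) among the lower ones. *Irx3* was 1.08, 5.27, 6.45, 1.91 and 1.01 TPM in KO EBs, below the control of the same number in 5 of 5 pairs although the groups overlap across library series. *Pax6* was 1.22, 1.59, 3, 0.701 and 0.503 TPM, and *Pax8* 0.532, 1.04, 1.3, 0.84 and 0.932 TPM, both lower in 5 of 5 pairs. *Vax2*, a gene of the ventral eye, was 1.64, 2.35, 0, 4.25 and 3.7 TPM in control and 10.4, 9.02, 3.09, 34.4 and 31.4 TPM in KO EBs, higher in 5 of 5 pairs. Thus *Irx3*, *Barx2*, *Pax6* and *Pax8*, which rose in control EBs, were lower in KO EBs, while *Gbx2*, which also rose in control EBs, was higher.

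Other stage markers moved with these groups. The 11 naive genes summed to between 271 and 535 TPM in control EBs and between 478 and 1174 TPM in *Pcgf1*-KO EBs, and 9 genes of the formative stage summed to between 1387 and 3641 TPM in control and between 529 and 2479 TPM in KO EBs. The 9 trophoblast genes summed to between 106.8 and 161.9 TPM in control and between 72.9 and 101.9 TPM in KO EBs without overlap, and the 11 streak and mesoderm genes to between 7.87 and 14.6 TPM and between 13.3 and 30 TPM. Their part in the members' values was not tested. Without replicates 4 and 5, 1 member was called in EBs, *Dlx5*, which was lower (log2 -2.38, adjusted *p* = 0.0348, against 0.116 with all libraries). *Lhx5* was then not called, and the adjusted *p* of *Meis1* was 0.184, of *Gsx1* 0.119, of *Nkx6-3* 0.0754, of *Gbx2* 0.41 and of *Barx2* 0.627. The log2 fold changes then were 3.13 for *Meis1*, 4.5 for *Gsx1*, 3.61 for *Nkx6-3*, 1.5 for *Gbx2* and -1.58 for *Barx2*. Without replicates 2 and 3, 8 members were called, and the calls lost included those of *Gsx1* (adjusted *p* = 0.0584) and *Lhx5*.

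Whether the effect of *Pcgf1* loss differed between EBs and ESCs was tested by the difference of both effects. With limma no member passed in either direction (0 of 78, where 0% and 0.00486% of all genes were called). At an unadjusted *p* under 0.05, 7 members were above and 7 below 0, against 1195 of 20594 genes in either direction. With the replicate number as a block, 4 members passed, 2 in each direction, where 0.835% and 0.782% of all genes were called. *Meis1* (log2 3.15) and *Vax2* (3.28) had a higher effect in EBs, and *Irx3* (-2.68) and *Nkx1-2* (-3.21) a lower effect in EBs than in ESCs.

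On conversion of *Ring1B* to its point mutant in the *Ring1A*-pm;*Ring1B*-cpm line, members of every class but HOXL were called higher at both stages. Of 80 members, 23 were higher and 0 lower in mutant ESCs than in control ESCs, where 2.34% and 0.197% of all genes were called, and 28 were higher and 0 lower in mutant EBs than in control EBs, where 3.76% and 0.764% were called. At an unadjusted *p* under 0.05, limma gave 54 members higher and 0 lower in ESCs, and 51 higher and 3 lower in EBs. Of all 20279 genes tested, 3388 in ESCs and 4188 in EBs passed at that threshold in either direction. The median log2 fold change was 1.74 over the members and 0.12 over all genes in ESCs, and 1.77 and 0.1 in EBs. A log2 fold change above 1 was found for 56 and 58 of 80 members, against 14.7% and 14.2% of all genes. Scaling by the median of ratios lowered the median of all genes by 0.12 and 0.10 and left those of the members at 1.63 and 1.67. These groups have 2 libraries each. Leaving out any 1 of the libraries compared, so that the lone library left is assumed to vary like the other groups, left 0 called members in ESCs, and in EBs 2 without control EB replicate 2 and 0 without any of the other 3.

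Genes near silent in controls were among the largest changes. *Barx1* was 0.609 and 0.805 TPM in control ESCs and 16.9 and 23.8 TPM in mutant ESCs (log2 4.65, SE 0.42, adjusted *p* = 0.00768), and 0.893 and 2.19 TPM in control EBs and 26.2 and 30 TPM in mutant EBs (log2 4.22, SE 0.42, adjusted *p* = 0.0099). *Hmx1*, a gene of sensory ganglia and the eye, was 0.22 and 1.04 TPM in control ESCs and 12.1 and 9.82 TPM in mutant ESCs (log2 4.19, SE 0.7, adjusted *p* = 0.0305). In EBs *Hmx1* was 0.302 and 1.11 TPM in control and 19.2 and 15.2 TPM in mutant (log2 4.62, SE 0.7, adjusted *p* = 0.0183). The CpG-dense promoter of *Barx1* is printed above, and *Barx1* and *Hmx1* were the members with the highest levels among those under 2 TPM on average in both control groups.

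*Pitx1*, a gene of hindlimb identity, was 0.135 and 0 TPM in control ESCs and 2.82 and 4.91 TPM in mutant ESCs (log2 4.64, SE 0.57, adjusted *p* = 0.0151), and 0.248 and 0.152 TPM in control EBs and 4.56 and 7.01 TPM in mutant EBs (log2 4.28, SE 0.57, adjusted *p* = 0.0138). *Six2*, a gene of nephron progenitors, was 0.236 and 0.0743 TPM in control ESCs and 2.49 and 4.45 TPM in mutant ESCs (log2 3.83, SE 0.51, adjusted *p* = 0.0194), and it was higher in EBs too (log2 4.24, SE 0.51, adjusted *p* = 0.0119). *Dlx6*, a craniofacial and forebrain gene, was listed at 0 in both control ESC libraries and was 1.68 and 2.74 TPM in mutant ESCs, and was 0.142 and 0 TPM in control EBs and 3.12 and 3.12 TPM in mutant EBs. *Nkx2-3*, of the spleen and gut, was 0.0784 and 0 TPM in control ESCs and 1.28 and 2.64 TPM in mutant ESCs (log2 3.86, SE 0.54, adjusted *p* = 0.021). For all 4 of these genes every mutant library was above every control library of its stage.

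*En2* and *Nkx2-4* had the smallest log2 fold changes of the members called higher in mutant ESCs. *En2*, a midbrain and hindbrain gene, was 5.85 and 5.53 TPM in control ESCs and 15.1 and 14.5 TPM in mutant ESCs (log2 1.36, SE 0.21, adjusted *p* = 0.0271), and 6.78 and 5.26 TPM in control EBs and 12.5 and 12.8 TPM in mutant EBs (log2 1.07, SE 0.21, adjusted *p* = 0.0389). *Nkx2-4* of the hypothalamus was 1.4 and 1.47 TPM in control ESCs and 5.78 and 6.06 TPM in mutant ESCs (log2 1.97, SE 0.26, adjusted *p* = 0.0187). *Nkx2-5*, the heart factor, was 0.543 and 0.514 TPM in control ESCs and 3.54 and 4.72 TPM in mutant ESCs (log2 2.74, SE 0.38, adjusted *p* = 0.021). Log2 fold changes in EBs were 1.4 for *Nkx2-4* and 2.37 for *Nkx2-5*. The remaining members named by rule were *Pitx3* (log2 2.51), *Meis1* (2.85) and *Irx1* (2.86) in ESCs, and *Meis3* (1.79), *Dlx2* (1.99), *Nkx2-3* (2.71) and *Lhx8* (4.08) in EBs, with adjusted *p* between 0.0267 and 0.0498.

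By class, 11 of 34 NKL, 5 of 17 PRD, 5 of 9 TALE, 1 of 8 LIM, 1 of 6 SINE and 0 of 6 HOXL members were higher in mutant ESCs, and 13, 6, 6, 2, 1 and 0 in mutant EBs, against 2.34% and 3.76% of all genes. *Irx3*, *Irx5*, *Msx1* and *Msx3* were called in ESCs but not in EBs, and those called in EBs but not in ESCs included *Dlx1*, *Dlx2*, *Hmx2*, *Hmx3*, *Irx2*, *Irx6*, *Lhx8* and *Meis3*. The difference between both effects passed for 0 of 80 members (0.00493% of all genes in each direction). At an unadjusted *p* under 0.05 in limma, 1 member was above and 4 below 0, against 1076 of 20279 genes in either direction.

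**Figure D4:**
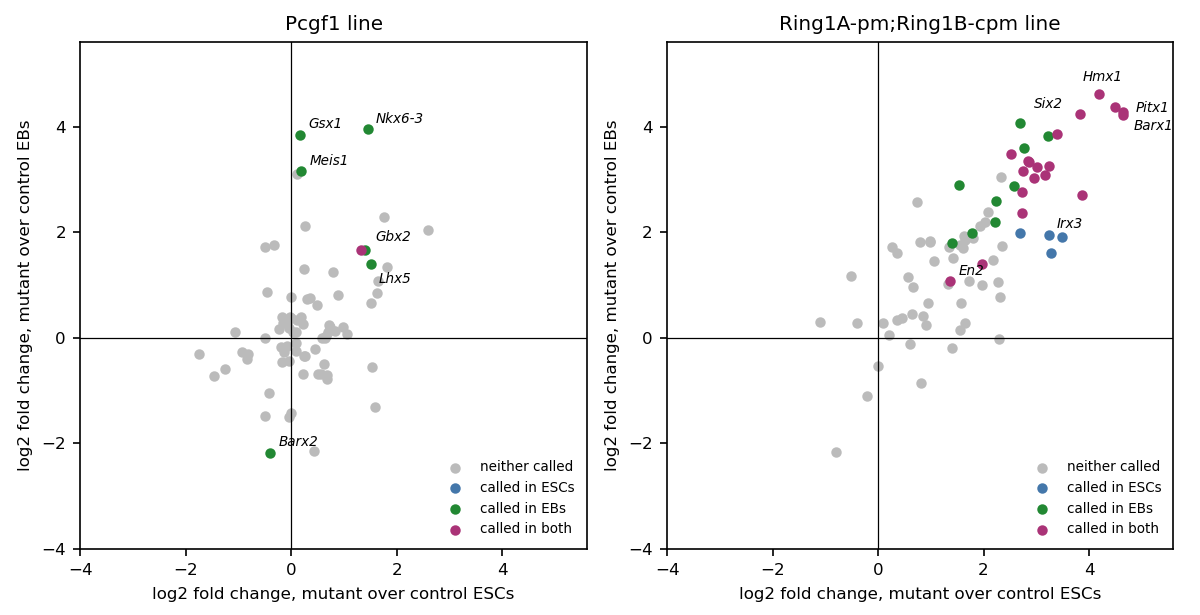
Log2 fold change of mutant over control in ESCs (horizontal axis) and in EBs (vertical axis) for the members tested in the *Pcgf1* line (78, left) and the *Ring1A*-pm;*Ring1B*-cpm line (80, right), 1 point per member, coloured by the stage at which the adjusted *p* was under 0.05. Points of the *Pcgf1* line gather around 0 with 7 called members, and those of the point mutant line lie mostly above 0 on both axes, with medians of 1.74 and 1.77.

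Some neighbouring genes of a cluster were called together in the point mutants and others were not. *Hmx2* and *Hmx3*, which lie within 13.7 kb on chromosome 7, were both called in mutant EBs, and so were *Dlx1* and *Dlx2*, within 18.6 kb on chromosome 2. *Pax1* (log2 3.25 in ESCs and 3.26 in EBs) and *Nkx2-4* were called at both stages. *Nkx2-2* between them on chromosome 2 was 0.0677 and 0.128 TPM in control and 0.368 and 0.479 TPM in mutant ESCs (log2 1.41, adjusted *p* = 0.134), higher in both mutant libraries and not called. *Nkx2-6* was at most 0.161 TPM in any library of the line and was not called. *Nkx2-1* and *Dlx4* were not called either, at log2 fold changes between 0.99 and 1.82. Whether called and uncalled neighbours differ was not tested.

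*Six4* and *Pax6* kept a stage difference in this line. In control EBs against control ESCs, 5 members were higher and 2 lower, where 2.73% and 2% of all genes were called, and the median log2 fold change was 0.29 over the members and 0 over all genes. *Six4* was 8.65 and 5.87 TPM in control ESCs and 23.3 and 22.9 TPM in control EBs (log2 1.68, SE 0.37, adjusted *p* = 0.0498). *Pax6* (log2 2.84, adjusted *p* = 0.0203) and *Nkx2-4* (1.51, 0.0224) were higher and *Nkx6-3* (-1.84, 0.0489) was lower in EBs. *Six6* was listed at 0 in control ESCs and was 0.422 and 0.47 TPM in control EBs. Leaving out either control ESC library left 0 members called, leaving out control EB replicate 1 left 1, and leaving out control EB replicate 2 left 3.

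*Nkx1-2* had the largest fall in this comparison, from 11.1 and 3.87 TPM in control ESCs to 0.559 and 0.195 TPM in control EBs (log2 -3.92, SE 0.65, adjusted *p* = 0.0197). In mutant cells its levels were 3.39 and 2.7 TPM at the ESC stage, and 0.293 and 0.639 TPM at the EB stage, and it was not called for the mutant at either stage. *Six4* was 7.23 and 15.9 TPM in mutant EBs, below both controls, and was not called. *Gbx2*, which was higher in *Pcgf1*-KO EBs, was 16.9 and 6.65 TPM in control and 17.1 and 9.79 TPM in mutant EBs of this line. *Pax8* was 12.9 and 7.02 TPM in control and 2.17 and 1.95 TPM in mutant EBs, and was not called. Marker lists of other stages and cell types moved with the mutant too. Formative genes summed to 640 and 907 TPM in control EBs and to 249 and 284 TPM in mutant EBs, and naive genes to 806 and 911 TPM and to 1398 and 1431 TPM. Some genes went against these sums. *Sox3* of the formative list rose from 8.7 and 9.7 to 31.5 and 25 TPM, and *Fgf8* from 4.4 and 5.5 to 5.8 and 7 TPM. *Nr0b1* of the naive list fell from 87.2 and 60.5 to 55.4 and 37 TPM. The 9 trophoblast genes summed to between 49.4 and 63.9 TPM in control and between 99 and 126 TPM in mutant ESCs, and to between 69.6 and 96.5 TPM and between 134 and 159 TPM in EBs. The 11 streak and mesoderm genes went from between 17.5 and 19.6 TPM to between 34 and 37.1 TPM in ESCs and from between 11.9 and 18.1 TPM to between 34.9 and 43.4 TPM in EBs. The 9 primitive endoderm genes went from between 24.1 and 29.2 TPM to between 39.2 and 42.7 TPM in ESCs and from between 19.1 and 24.8 TPM to between 43 and 49.9 TPM in EBs. The 12 neural genes overlapped in ESCs, and were between 41.9 and 52.9 TPM in control and at 86.2 and 86.3 TPM in mutant EBs. Of these lists, *Elf5* and *Plac1* were at 0 in control EBs, *Dcx* in control ESCs and mutant EBs, and *Neurog1* and *Neurog2* in control ESCs. Fibroblast genes summed to 646 and 751 TPM in control ESCs and to 757 and 758 TPM in mutant ESCs. In EBs they summed to 362 and 438 TPM in control and to 509 and 646 TPM in mutant. In control ESCs *Fn1* (190 and 189 TPM), *Sparc* (171 and 158 TPM) and *Vim* held most of the fibroblast sum. Genes of this list went both ways. From control to mutant ESCs, *Col1a1* went from 6.98 and 5.56 to 16.3 and 11.3 TPM, and *Vim* from 307 and 226 to 140 and 105 TPM. The part of these marker lists in the members' values was not tested.

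The *Ring1A/B* line showed the highest levels of the members. By label, 62 of 79 members tested (*Pax4* was listed at 0 throughout) were higher and 0 lower in control EBs than in control ESCs, where 28.6% and 14.6% of all genes were called, with 0 members lower at an unadjusted *p* under 0.05 in limma. The same libraries are mutant ESCs against control ESCs by file name. The median log2 fold change was 2.28 over the members and 0.13 over all genes, and scaling by the median of ratios lowered the latter by 0.12. By class, 27 of 34 NKL, 14 of 16 PRD, 8 of 9 TALE, 7 of 8 LIM, 3 of 6 SINE and 3 of 6 HOXL members were higher.

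*Pax9*, a gene of pharyngeal pouches and teeth, was 0.17 and 0.0646 TPM in libraries labelled control ESC and 4.53 and 5.11 TPM in those labelled control EB (log2 4.54, SE 0.35, adjusted *p* = 6.17e-05). *Irx4*, a ventricular gene, was 0.0561 and 0.0639 TPM against 2.8 and 3.59 TPM (log2 4.35, SE 0.25, adjusted *p* = 1.86e-05), and *Hmx3*, a gene of the inner ear, was 0 and 0.243 TPM against 4.45 and 2.79 TPM (log2 4.29, SE 0.98, adjusted *p* = 0.00983). *Six3* of the forebrain (log2 4.1, SE 0.33) and *Dlx2* of the forebrain and branchial arches (log2 4.07, SE 0.39) followed. *Nkx2-3* was listed at 0 in both libraries labelled control ESC and was 1.52 and 2.61 TPM in those labelled control EB. *Barx1* was 2.9 and 3.91 TPM against 21.4 and 25.7 TPM, and *Hmx1* was 0.968 and 1.54 TPM against 9.53 and 12.5 TPM.

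The smallest changes called in this comparison included those of *Prrx2* (log2 0.88, SE 0.18), *Prrx1* (1.24, SE 0.3), *Gbx2* (1.37, SE 0.2) and *Dlx3* (1.42, SE 0.16). *Six4*, at 17.7 and 17.1 TPM in libraries labelled control ESC and 14.9 and 17.2 TPM in those labelled control EB, was not called. *Irx6*, *Six6*, *Dlx4* and *Nkx2-6* were not called either.

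Libraries labelled mutant ESC differed from those labelled control ESC in another set of members. By label, 31 of 79 members were higher and 8 lower, where 25.2% and 23.6% of all genes were called, and by file name the same libraries are control EBs against control ESCs. The share of members called lower (8 of 79) was under that of all genes. *Pax6* was 0.153 and 0.279 TPM against 2.88 and 1.88 TPM (log2 2.97, SE 0.3, adjusted *p* = 1.47e-04). *Barx2* (log2 3.41, SE 0.35), *Alx1* (2.57, SE 0.29) of craniofacial mesenchyme and *Lhx2* (0.63, SE 0.17) of the forebrain were higher too.

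The lower members included *Nkx6-3*, at 2.48 and 2.38 TPM in libraries labelled control ESC and 0.539 and 0.267 TPM in those labelled mutant ESC (log2 -2.38, SE 0.38, adjusted *p* = 0.00146). *Vax2* was 10.7 and 10.2 TPM against 1.71 and 2.58 TPM (log2 -2.26, SE 0.2, adjusted *p* = 7.22e-05). *Pitx1* (log2 -1.66), *Nkx6-2* (-1.14) and *En2* (-0.53) were lower as well. The members *Pax6*, *Barx2*, *Nkx6-2* and *Nkx6-3* had the same sign here as in control EBs against control ESCs of the *Pcgf1* line. Other members did not. *Irx2*, which fell there, was higher here, at 5.98 and 5.6 TPM against 11.3 and 10.8 TPM. *Gbx2*, which rose there, overlapped here, at 4.33 and 6.33 TPM against 5.88 and 4.4 TPM. Fibroblast genes summed to 1839 and 1882 TPM in libraries labelled control ESC, 567 and 574 TPM in those labelled mutant ESC, 1814 and 1865 TPM in those labelled control EB and 953 and 967 TPM in those labelled mutant EB, and *Prrx1* moved with them, at 0.882 and 0.87, 0.0809 and 0.134, 2.38 and 2.03, and 0.574 and 0.791 TPM. The part of MEFs in this was not tested. In libraries labelled mutant EB, 9 primitive endoderm genes summed to 186 TPM in both, against at most 51.5 TPM elsewhere in the line, and 12 neural genes to between 140.5 and 141.4 TPM, against at most 89.7 TPM. Their part was not tested.

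Libraries labelled mutant EB, whose file names give the same condition, had the most members at or above 1 TPM. Against libraries labelled mutant ESC, 63 of 79 members were higher and 4 lower, where 36.6% and 19.9% of all genes were called (mutant against control EBs by file name). The median log2 fold change was 2.33 over the members and 0.2 over all genes, and scaling lowered the latter by 0.18. *Pitx1* was 0.369 and 0.244 TPM in libraries labelled mutant ESC and 23.1 and 21.7 TPM in those labelled mutant EB (log2 5.8, SE 0.18, adjusted *p* = 4.87e-07). *Six3* was 0.0409 and 0.054 TPM against 5.04 and 4.69 TPM (log2 5.07, SE 0.33, adjusted *p* = 1.07e-05), and *Meis1* was 0.263 and 0.347 TPM against 10.2 and 9.54 TPM (log2 4.63, SE 0.26, adjusted *p* = 5.84e-06).

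*Nkx1-1* and *Dlx6* were listed at 0 in both libraries labelled mutant ESC and were 3.13 and 4.45 TPM and 2.93 and 3.54 TPM in those labelled mutant EB. *Nkx2-3* was 0.0713 and 0 TPM against 5.2 and 3.79 TPM (log2 5.12, SE 0.41). The 4 lower members included *Pax8* (log2 -1.29, SE 0.26), *Prrx2* (-0.68, SE 0.18) and *Six4* (-0.55, SE 0.07). Both libraries labelled mutant ESC had the highest levels of the line for *Pax8* and *Six4*. *Irx3* (log2 0.45, SE 0.15) was among the smallest changes of the higher members.

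Against libraries labelled control EB, 21 members were higher and 3 lower in those labelled mutant EB, where 19.3% and 14.1% of all genes were called, and by file name these are mutant EBs against mutant ESCs. The median was 0.58 over the members and 0.03 over all genes. *Lhx1*, of the head organiser and kidney, was 0.984 and 0.566 TPM against 5.18 and 5.05 TPM (log2 2.62, SE 0.37, adjusted *p* = 0.00165), *Gsx1* was 0.763 and 0.399 TPM against 3.14 and 4.27 TPM (log2 2.52, SE 0.41, adjusted *p* = 0.00302) and *Gbx1* was 0.699 and 0.974 TPM against 3.34 and 4.64 TPM (log2 2.12, SE 0.34, adjusted *p* = 0.00261). *Nkx1-1* (1.96), *Dlx5* (1.72), *Six4* (0.73), *Dlx3* (0.56) and *Lhx2* (0.51) were higher, and *Prrx1* (-1.57), *Vax2* (-0.98) and *Prrx2* (-0.76) lower. With a pseudocount of 1, 38 members were called (35 higher, 3 lower), and without 1 library, between 10 and 18.

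The difference of both mutant effects (EBs minus ESCs) holds the same value under labels and file names, since it adds the libraries labelled mutant EB and control ESC and subtracts the other two groups. It was above 0 for 8 of 79 members and below 0 for 14, where 18.9% and 15.8% of all genes were called. The share of members was under that of all genes above 0 and close to it below 0. By class, 6 of 16 PRD members were below 0 and 1 above. *Pax6* (log2 -2.57, SE 0.43, adjusted *p* = 0.00321), *Barx2* (-2.82, SE 0.5, adjusted *p* = 0.00416), *Pax3* (-2.11, SE 0.51, adjusted *p* = 0.0163), *Pax8* (-1.88, SE 0.37, adjusted *p* = 0.00661), *Irx5* (-1.78, SE 0.38, adjusted *p* = 0.00974) and *Prrx2* (-1.57, SE 0.26, adjusted *p* = 0.00321) were lowest. For *Barx2*, levels were 0.407 and 0.371 TPM in libraries labelled control ESC, 5.72 and 4.55 TPM in mutant ESC, 1.89 and 2.53 TPM in control EB and 2.31 and 4.82 TPM in mutant EB. *Gbx1* (2.56, SE 0.47), *Nkx1-1* (2.54, SE 0.81), *Pitx1* (2.12, SE 0.26), *Evx1* (1.65, SE 0.46), *Meis1* (1.62, SE 0.37) and *Vax2* (1.28, SE 0.28) were highest. For *Meis1*, levels were 0.339 and 0.531 TPM in libraries labelled control ESC, 0.263 and 0.347 TPM in mutant ESC, 3.79 and 4.52 TPM in control EB and 10.2 and 9.54 TPM in mutant EB. Without labelled mutant EB replicate 1 or 2 it was called for 12 members in place of 22.

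In the *Pcgf2/4*, *Pcgf3/5* and *Pcgf6* lines no member was called in any of 3 comparisons by label (control EBs against control ESCs, mutant against control ESCs and mutant against control EBs). Of all genes, 0%, 0% and 0% were called in the *Pcgf2/4* line, 0.0601%, 0.0401% and 0.0301% in the *Pcgf3/5* line and 0%, 0% and 0% in the *Pcgf6* line. At an unadjusted *p* under 0.05, limma gave between 1 and 9 members in each of these comparisons, with the most in control EBs against control ESCs (6, 7 and 9). There 239 of 19250, 2531 of 19963 and 1060 of 19695 genes tested passed at that threshold. In mutant ESCs 166, 282 and 118 genes did, and in mutant EBs 190, 419 and 202. Labelled groups hold libraries of different names here, so that a count of 0 says little of the genotypes or of the stage. The 9 formative genes summed to 84.1 and 1087 TPM in libraries labelled control ESC of the *Pcgf2/4* line. They summed to 79.2 and 677.8 TPM in those of the *Pcgf6* line, and to 74.3 and 548.7 TPM in libraries labelled mutant ESC of the *Pcgf3/5* line. All 80 members were tested in the *Pcgf2/4* and *Pcgf6* lines and 77 in the *Pcgf3/5* line.

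Values of single libraries varied within labelled groups of these lines. In the *Pcgf3/5* line, *Six4* was 51.3, 50, 54.8 and 47.3 TPM in the 4 libraries whose file names give EBs and 15.7, 15.2, 14.2 and 14.7 TPM in the 4 whose names give ESCs, and these fall in mixed labelled groups. In the *Pcgf6* line, *Pax6* was 1.9, 2.16, 5.06 and 3.88 TPM in libraries named EB and 0.0433, 0.128, 0.0472 and 0.0936 TPM in libraries named ESC. In the *Pcgf2/4* line, *Nkx6-2* was 12.4, 12.3, 10.3 and 12.8 TPM in libraries named ESC and 3.08, 2.13, 1.59 and 1.87 TPM in libraries named EB. These values are a description, and no test was made by name. *Barx1* and *Hmx1*, which rose in the point mutants, stayed at or below 2.54 and 5.67 TPM in every library of these 3 lines.

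Other homeobox genes outside the families, a list of 67 such as *Otx2*, *Pou3f1*, *Isl2* and *Tlx2*, were read in the same fits. In control EBs against control ESCs of the *Pcgf1* line, 13 of 65 tested were higher and 12 lower, against 11.5% and 13.4% of all genes, and *Pou3f1* (log2 6.12, SE 0.55), *Pou4f3* (3.41, SE 0.64), *Hesx1* (-3.31, SE 0.49) and *Dbx2* (3.17, SE 0.53) changed most. In *Pcgf1*-KO ESCs *Tlx2* (log2 3.22, SE 0.55) and *Pou4f2* (2.29, SE 0.49) were higher and *Otx2* (-2.18, SE 0.32), a head organiser gene, was lower, which makes 3 of 65 where 0.32% of all genes were called in each direction. In *Pcgf1*-KO EBs *Tlx2* (2.3, SE 0.52), *Pou4f2* (1.85, SE 0.46) and *Hhex* (0.93, SE 0.18) were higher and none was lower, against 1.08% and 0.874% of all genes. In the point mutant line, 8 of 65 were higher and 0 lower in ESCs (2.34% and 0.197% of all genes) and 13 higher and 2 lower in EBs (3.76% and 0.764%), with median log2 fold changes of 0.9 and 0.87, and *Isl2* led in both (3.6, SE 0.58, and 4.28, SE 0.58). By label, 40 of 65 were higher and 7 lower in libraries of control EBs against control ESCs of the *Ring1A/B* line, against 28.6% and 14.6% of all genes, led by *Lmx1a* (5.33, SE 0.22).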

How the data were processed

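RNA-seq of 59 libraries was read from tables in which the authors give TPM, a level scaled for transcript length and library total, per gene. The submitters' processing notes name STAR 2.5.2b, DESeq2 and mm9. TPM keeps no depth, so no counting error could be given. No 2 libraries held identical values. The 80 members, the gene lists and the tests were chosen with earlier results of these data known.

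Libraries were grouped by sample label. For each line, limma 3.58.1 in R 4.3.3 was fitted to log2(TPM + 0.1) over the 4 groups, for genes above 0 in at least 1 library, with a trended prior, with Benjamini-Hochberg adjustment of *p* over all genes tested. Changes of low genes are understated on this scale. Script steps were tested on simulated data. Alternatives were a pseudocount of 1, a mean of at least 1 TPM, median-of-ratios scaling, the replicate number as a block, leaving out each library and, chosen after seeing the data, leaving out each library series of the *Pcgf1* line.

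Deviations of same-numbered *Pcgf1* libraries from their group means, over 13400 genes, correlated in 27 of 27 pairs (r between 0.317 and 0.653). Libraries of different numbers were not correlated. Replicates 2 and 3, and replicates 4 and 5, share a library series, so that a pairing by number and a shared series cannot be told apart. A *Pcgf1*-KO EB library is replicate 4 in its title and 5 in its characteristics, and the title was followed. Blocked values, with the number as block, are printed where they change a call.

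Named with values were called members with a group mean of at least 1 TPM (where over 12 were called, the 6 highest and 6 lowest log2 fold changes), the 5 highest in control ESCs and EBs, Group 1 or 3 members, their neighbours, at most 4 other homeobox genes and the targeted genes. Members named for the blocked fit or for a fit without a library series, and values given as levels only, were chosen after their values were seen. The named results of 4 members are not reported here, although they stay in the counts. RING1B groups are the study's lists. mm9 positions come from the gene annotation and promoters from RefSeq on GRCm38.p6, which were never mixed.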

Additional observations from a re-analysis of the deposited data

Results flagged for a closer look

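In 64 groups of 4 or 5 libraries of the *Pcgf1* line (16 members), 6 libraries lay far from the others of their group. For normal values, chance gives about 1 in 20 groups. The rule was used on TPM, some near 0 and from different library series, so that this rate may not apply. *Barx2* was listed at 0 in *Pcgf1*-KO ESC replicate 3, against 0.201 to 0.272 TPM in the others. *Gsx1* was 0.783 TPM in *Pcgf1*-KO ESC replicate 2, against 0 to 0.171 TPM. *Irx2* was 10.9 TPM in *Pcgf1*-KO ESC replicate 3, against 5.56 to 6.95 TPM, and 4.25 TPM in control EB replicate 4, against 1.52 to 2.16 TPM. *Irx5* was 0.945 TPM in control ESC replicate 3, against 0.353 to 0.372 TPM. *Pax8* was 2.27 TPM in *Pcgf1*-KO ESC replicate 1, against 0.72 to 0.854 TPM.

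In the *Ring1A/B* line the mutant effect of some members differed between EBs and ESCs by the limma test of the difference. This difference has the same value by label and by file name. The difference was called above 0 for 8 of 79 members and below 0 for 14, where 18.9% and 15.8% of all genes were called. Members were thus called no more often than all genes above 0, and about as often below 0. The difference was a log2 of -2.82 for *Barx2*, -2.57 for *Pax6*, -2.11 for *Pax3*, -1.88 for *Pax8*, -1.78 for *Irx5* and -1.57 for *Prrx2*. It was 1.28 for *Vax2*, 1.62 for *Meis1*, 1.65 for *Evx1*, 2.12 for *Pitx1*, 2.54 for *Nkx1-1* and 2.56 for *Gbx1*.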

How the results depend on the processing

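For the members named because they were called, 1071 values were refitted, each of a member, a comparison and an alternative setting. None changed sign. Of these values, 838 stayed under the threshold and 233 did not, 202 of them on leaving out 1 library. These members were chosen for passing, so that their calls could only hold or be lost. Members named without a call were not in this count. In the *Pcgf1* line, members called in control EBs against control ESCs numbered 25, with 15 at a mean of at least 1 TPM (31 members tested), 13 without replicates 2 and 3 and 20 to 25 without 1 library. In *Pcgf1*-KO ESCs 1 was called, with 3 at a pseudocount of 1, 3 under median-of-ratios scaling, 0 without replicates 2 and 3, 0 without replicates 4 and 5 and 0 to 2 without 1 library. In *Pcgf1*-KO EBs 7 were called, with 11 at a pseudocount of 1, 1 without replicates 4 and 5 and 5 to 9 without 1 library, and the difference of both effects stayed at 0 to 0. The fit with the replicate block gave 7, 17 and 4 in these last 3 comparisons. In the *Ring1A*-pm;*Ring1B*-cpm line, leaving out 1 library gave 0 to 3 for control EBs against ESCs, 0 to 0 for mutant ESCs, 0 to 2 for mutant EBs and 0 to 0 for the difference. There the numbers are shared by 2 libraries a group and nothing else pairs them, and the replicate block gave 13 (from 7), 36 (from 23) and 39 (from 28). Correlations of same-numbered libraries were between 0.106 and 0.381 in that line, between -0.038 and 0.048 in the *Ring1A/B* line, between 0.616 and 0.758 in *Pcgf2/4*, between -0.79 and 0.082 in *Pcgf3/5* and between 0.281 and 0.759 in *Pcgf6*. In the *Ring1A/B* line, mutant EBs against control EBs gave 24, with 38 at a pseudocount of 1 and 10 to 18 without 1 library. The other comparisons of that line, by label, gave 50 to 58 (control EBs against control ESCs), 26 to 31 (mutant against control ESCs), 59 to 64 (mutant EBs against mutant ESCs) and 12 to 20 (the difference) without 1 library, and the *Pcgf2/4*, *Pcgf3/5* and *Pcgf6* lines stayed at 0 to 0. The cause of these moves was not tested. Depth is unknown, and a TPM near 0 may rest on few reads.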
